A study of Homo sapiens with 36 samples.

Results

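CTCF peaks of HEK293T cells treated with small interfering RNA against CHD5 (siCHD5) were set directly against those of cells treated with small interfering RNA against MBD2 (siMBD2). Members were all peaks of the 2 deposited lists on chromosomes 1 to 22 and X, with peaks that share chromosome, start and end counted once. A peak was called shared when at least 1 bp of it was covered by a peak of the other list and specific when none was, whether or not cells given the control small interfering RNA (siNC) had a peak there. There were 31451 siCHD5 peaks and 26087 siMBD2 peaks, which merged into 34909 regions of the 54382 regions found in all 6 lists of the series.

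HEK293T is a human embryonic kidney line that carries the SV40 large T antigen, and all groups were labelled as this line and grown in serum-containing DMEM, differing in the small interfering RNA they received. The series mapped CTCF by chromatin immunoprecipitation and sequencing (ChIP-seq) after knockdown of CHD3, CHD4, CHD5, MBD2 or MBD3 or with siNC, with 3 immunoprecipitates and 3 inputs per condition. Each deposited list pools the 3 replicates of a condition, so there is no replicate spread for any value here and no test between conditions was made. The remaining protein level of CHD5 or MBD2 was not analysed here, and the identity of the cell line was not checked.

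CHD5 and MBD2 belong to NuRD, a complex that couples nucleosome remodelling to histone deacetylation. CHD5 is one of the interchangeable ATP-dependent helicases of the complex and is best known from neurons and testis, where it is most abundant. MBD2 binds methylated CpG dinucleotides and brings the complex to methylated DNA, and it and MBD3 occupy the complex in place of one another. CTCF is the zinc-finger protein of insulators and chromatin loop anchors, and at part of its sites its binding is blocked by DNA methylation.

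The siCHD5 list was the longer of the pair and had the higher coverage. Its peaks had a median width of 300 bp and covered 9.75 Mb, against 267 bp and 7.41 Mb for the siMBD2 peaks. Fold enrichment, the authors' ratio of the summit pileup to the local background, had a median of 6.54 in siCHD5 and 6.62 in siMBD2. The median −log10 q was 21.97 in siCHD5 and 10.98 in siMBD2. The lowest background in a list, a measure of how many fragments cover a base by depth and fragment length together, was 1.95 fragments per bp in siCHD5 and 0.6402 in siMBD2, a ratio of 3.05, and it was 2.96 in siNC. Because coverage differs, fold and q are used below mainly to rank or class peaks within 1 list. Where the same cut is applied to several lists, it keeps unlike parts of them. A −log10 q of at least 10, for example, was reached by 80.8% of siCHD5 and 55.3% of siMBD2 peaks.

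Most CTCF peaks were common to both knockdowns, and in the lists as deposited more peaks were specific to siCHD5 than to siMBD2. Of the siCHD5 peaks, 22599 (71.9%) were shared and 8852 were specific (28.1%, exact Clopper-Pearson 95% interval 27.6 to 28.6). Of the siMBD2 peaks, 22614 (86.7%) were shared and 3473 were specific (13.3%, interval 12.9 to 13.7). Intervals cover counting error only. As overlap was nearly one to one, the longer list has the larger specific share. With both lists cut to the 26087 peaks of smallest p, which makes the shares nearly equal by construction, 5202 siCHD5 peaks and 5182 siMBD2 peaks were specific, 19.9% of each. Over the other settings tried, the specific share ran between 18.9% and 45.6% in siCHD5 and between 1.80% and 15.7% in siMBD2. As merged regions, 8852 were called in siCHD5 alone of the pair (25.4%), 3473 in siMBD2 alone (9.95%) and 22584 in both (64.7%).

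The line between shared and specific was rarely close. The typical shared peak overlapped its partner by 250 bp in both lists, and 8 shared siCHD5 peaks and 7 shared siMBD2 peaks overlapped by under 50 bp, none by under 10 bp. Just outside the rule, 7 specific siCHD5 peaks and 9 specific siMBD2 peaks had a peak of the other list within 100 bp, and 265 and 215 had one within 1 kb. A specific siCHD5 peak lay a median of 29749 bp from the nearest siMBD2 peak, and a specific siMBD2 peak 22426 bp from the nearest siCHD5 peak. Requiring no peak of the other list within 1 kb left 8587 siCHD5 peaks (27.3%) and 3258 siMBD2 peaks (12.5%).

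Specific peaks were weaker than shared peaks in both lists. In siCHD5 the median fold was 5.42 for specific peaks and 7.03 for shared peaks, with median summit pileups of 26 and 56 fragments. In siMBD2 the median fold was 4.82 for specific peaks and 6.87 for shared peaks, with pileups of 9 and 23 fragments. A −log10 q of at least 10 was reached by 54.3% of specific and 91.2% of shared peaks in siCHD5 (80.8% of the whole list), and by 7.46% of specific and 62.6% of shared peaks in siMBD2 (55.3% of the whole list). Specific peaks were also narrower, with a median of 249 bp against 319 bp for shared peaks in siCHD5 and 229 bp against 273 bp in siMBD2. Peaks with several summits made up 0.633% of the specific and 1.62% of the shared peaks in siCHD5, and 0.633% and 1.45% in siMBD2.

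The decline with strength was steeper in siMBD2. Among the weakest 10% of peaks by fold, 58.0% of siCHD5 peaks (interval 56.3 to 59.7) and 53.2% of siMBD2 peaks (51.3 to 55.2) had no partner. In the fifth decile the shares were 28.0% in siCHD5 and 6.44% in siMBD2. Among the strongest 10% they were 8.65% in siCHD5 (272 peaks, interval 7.69 to 9.69) and 0.805% in siMBD2 (21 peaks, 0.499 to 1.23). In both lists the largest step lay between the first and second deciles, the second having 46.8% specific peaks in siCHD5 and 26.3% in siMBD2.

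**Figure D1:**
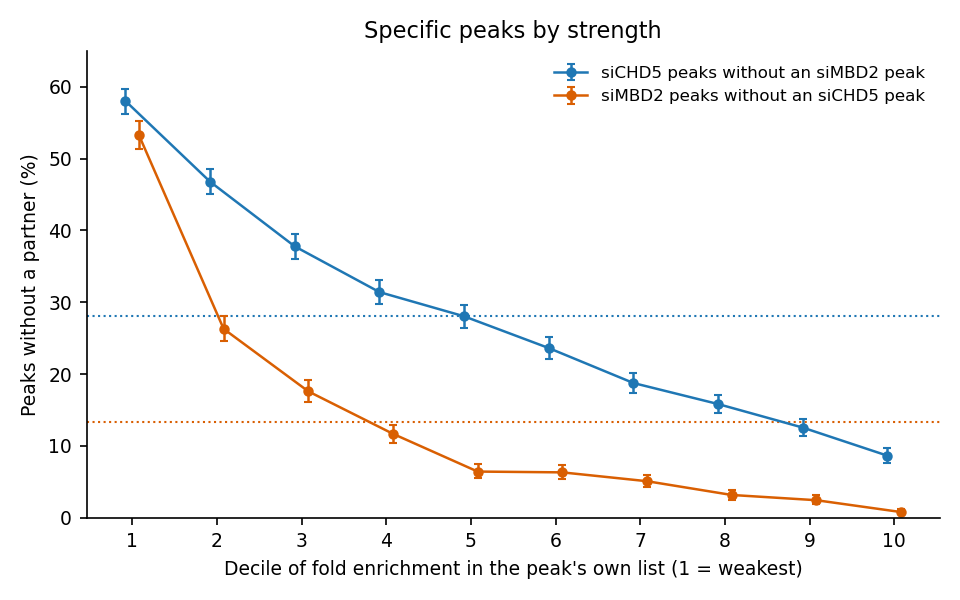
Share of peaks without a partner in the other list (vertical axis, percent) by decile of fold enrichment in the peak's own list (horizontal axis, 1 is weakest), for siCHD5 and siMBD2. Bars are exact 95% intervals and dotted lines the share in the whole list; from the first to the last decile the siCHD5 line runs between 58.0% and 8.65%, and the siMBD2 line between 53.2% and 0.805%.

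The difference in coverage was then applied to the siCHD5 peaks. The pileup and the background of each siCHD5 peak were multiplied by the ratio of the lowest backgrounds of the 2 lists (0.328), and the Poisson p of the result was compared with the smallest −log10 p of the siMBD2 list (3.81). At this scaled coverage 2441 siCHD5 peaks no longer reached the siMBD2 limit, and 1800 of them were specific. The other 29010 siCHD5 peaks included 7052 specific ones (24.3%), so most specific siCHD5 peaks had a scaled pileup that passed.

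Most of these lay not far above the limit. With a scaled −log10 p between 5 and 7.5, 43.7% of siCHD5 peaks were specific (2716 of 6221), and between 10 and 15 the share was 12.2% (920 of 7535). Between 20 and 30 it was 1.40% (35 of 2492), and above 30 no peak of 596 was specific, which allows a share of up to 0.503% by 3 counts and 0.617% by the exact interval. The scaling holds no variation between libraries, whose size could not be measured from pooled lists, so these shares cannot be told apart from that variation.

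The control list held about the same part of both whole lists, 90.6% of siCHD5 peaks and 90.7% of siMBD2 peaks, but a larger part of the siCHD5-specific than of the siMBD2-specific peaks. An siNC peak overlapped 6521 of the 8852 siCHD5-specific peaks (73.7%, interval 72.7 to 74.6) and 1674 of the 3473 siMBD2-specific peaks (48.2%, interval 46.5 to 49.9). With a −log10 q of at least 5 required in every list, the siNC shares were 78.5% for siCHD5-specific and 68.6% for siMBD2-specific peaks, and with at least 10 they were 83.8% and 75.1%. With a −log10 q of at least 10 in the counted list alone they were 88.6% and 80.3%. Of shared peaks, 97.2% had an siNC peak, counted from either list. In the lists as deposited, whole-list and shared values were alike, and the specific classes differed in size. With both lists cut to 26087 peaks the specific classes were nearly equal, with 5202 siCHD5 and 5182 siMBD2 peaks. The siNC shares were then 87.3% and 60.4%. Why the siNC share was lower for siMBD2-specific peaks was not tested. Specific peaks that siNC also had were the stronger ones: their median fold was 5.71, against 4.62 for those that siNC lacked, in siCHD5, and 5.27 against 4.27 in siMBD2. For the 272 siCHD5-specific peaks of the strongest decile the siNC share was 97.8%, and 17 of the 21 siMBD2-specific peaks of the strongest decile had an siNC peak.

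Split the other way, 21964 of the 36270 siNC peaks (60.6%) had a peak in both knockdown lists, 6501 (17.9%) in siCHD5 alone of the pair, 1634 (4.51%) in siMBD2 alone and 6171 (17.01%) in neither. The fold in siNC, which the shared or specific call did not use, differed in its median between these classes, with broad overlap. Its median was 4.84 (quartiles 3.99 and 5.91) for control peaks found in siCHD5 alone and 4.56 (3.79 and 5.81) for those found in siMBD2 alone, against 5.71 (4.72 and 6.97) for those in both and 4.04 (3.37 and 4.91) for those in neither. Control summit pileups had medians of 43, 31, 82 and 23 fragments in the same 4 classes.

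The remaining knockdown lists held about the same part of both kinds of specific peak, except siMBD3. A siCHD3 peak overlapped 36.5% of siCHD5-specific and 37.3% of siMBD2-specific peaks, and a siCHD4 peak 29.9% and 30.6%. A siMBD3 peak overlapped 36.4% of siCHD5-specific peaks (interval 35.4 to 37.4) and 28.1% of siMBD2-specific peaks (26.6 to 29.6). Shared siCHD5 peaks were found in siCHD3, siCHD4 and siMBD3 at 76.4%, 71.5% and 77.8%. In the whole lists, siCHD3 had a peak at 65.2% of siCHD5 and 71.2% of siMBD2 peaks. For siCHD4 these shares were 59.8% and 66.1%, and for siMBD3 they were 66.2% and 71.2%.

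Counted over siCHD3, siCHD4, siMBD3 and siNC together, no other list had a peak at 5.75% of all siCHD5 peaks and 5.84% of all siMBD2 peaks. Within the specific classes, which differ in size, the shares were further apart. No other list had a peak at 1581 siCHD5-specific peaks (17.9%, interval 17.1 to 18.7) and at 1297 siMBD2-specific peaks (37.3%, interval 35.7 to 39.0), against 1.01% of shared siCHD5 peaks. These lone peaks were weak, with a median fold of 4.47 in siCHD5 and 4.27 in siMBD2. All 4 other lists had a peak at 950 siCHD5-specific peaks (10.7%) and at 465 siMBD2-specific peaks (13.4%), against 52.4% of shared siCHD5 peaks. These had median folds of 6.32 in siCHD5 and 4.92 in siMBD2.

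**Figure D2:**
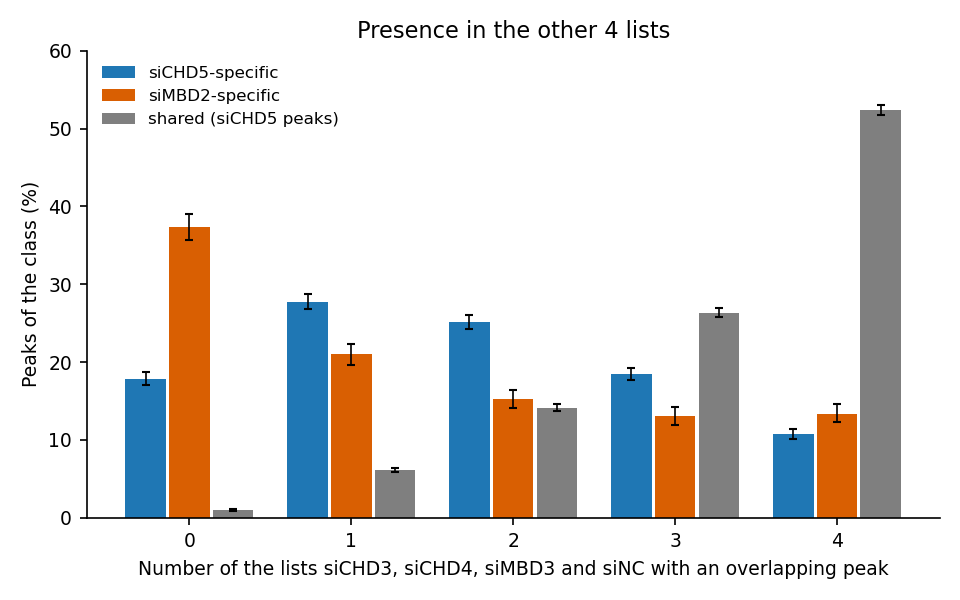
Number of the lists siCHD3, siCHD4, siMBD3 and siNC that held an overlapping peak (horizontal axis) for siCHD5-specific, siMBD2-specific and shared peaks (vertical axis, percent of the class, with exact 95% intervals). The siMBD2-specific peaks are most often in no other list (37.3%), the siCHD5-specific peaks most often in 1, and shared peaks most often in all 4 (52.4%).

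The 5 strongest siCHD5 peaks with no siMBD2 peak within 1 kb all had a control peak and were 338 to 382 bp wide, above the list's median width. The first, on chromosome 14 from 86523377 to 86523724, had a fold of 19.3 in siCHD5 and was called at 7.02 in siCHD3, 7.62 in siCHD4, 10.3 in siMBD3 and 9.81 in siNC, with the nearest siMBD2 peak 18354 bp away. Its pileup of 56 fragments gave a scaled −log10 p of 21.5, against the siMBD2 limit of 3.81. The peak was picked for its high siCHD5 fold, which rests on this pileup, so a high scaled value follows from the choice. The second, on chromosome 20 from 36985032 to 36985386, had a fold of 19.0 in siCHD5 and 6.08 in siNC, and it too was called in siCHD3 (6.49), siCHD4 (5.96) and siMBD3 (8.37). Both regions were called in every list of the series except siMBD2.

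The third, on chromosome 12 from 62387548 to 62387885 (fold 18.3), and the fourth, on chromosome 10 from 86475660 to 86476005 (fold 17.2), were called in siCHD4, siMBD3 and siNC but not in siCHD3. The fifth, on chromosome 15 from 45260041 to 45260422, also had a fold of 17.2 and was called in all lists but siMBD2, with 11.2 in siCHD3 and 8.18 in siNC. These 5 peaks ranked between 65 and 165 by fold among the 31451 siCHD5 peaks. Which genes lie at these or later positions was not analysed here, since gene annotation of the hg19 build was not used; all positions are hg19 and 1-based.

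The strongest siMBD2 peaks with no siCHD5 peak within 1 kb ranked lower in their own list, between 140 and 380 of 26087. The first, on chromosome 2 from 30936940 to 30937210, had a fold of 14.3 in siMBD2 and was called in siCHD3 (7.28), siCHD4 (8.01) and siMBD3 (9.46), but in neither siCHD5 nor siNC. The second, on chromosome 7 from 34636494 to 34636820 (fold 13.4), was called in siNC at 7.69 and in siMBD3 at 6.19, and in no other list. The first had an siCHD5 peak 2153 bp away and the second had its nearest 78569 bp away.

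The third siMBD2 peak lay on chromosome 6 from 29621245 to 29621560, with a fold of 12.8, and was called in every list but siCHD5, with 8.08 in siNC. The fourth, on chromosome 5 from 101426441 to 101426754 (fold 12.7), was called in siCHD4, siMBD3 and siNC. The fifth, on chromosome 9 from 88313282 to 88313611 (fold 12.5), was called in siCHD3 and siMBD3 and, like the first, not in siNC. Of these 5 peaks, 3 had a control peak, while all 5 of the leading siCHD5 peaks did.

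Regions built from all 6 lists were also counted by pattern. Of the 54382 regions, 921 (1.69%) were called in every list but siMBD2 and 439 (0.807%) in every list but siCHD5. Another 1581 (2.91%) were called in siCHD5 alone and 1297 (2.38%) in siMBD2 alone. The siMBD2 list was the shorter of the pair and had the lower coverage, which these counts do not adjust for. The regions in every list but siCHD5 were led by the chromosome 6 site above, followed by chromosome 10 from 21460322 to 21460694 (fold 11.4 in siMBD2, 7.65 in siNC) and chromosome 6 from 32943816 to 32944983. The last had a fold of 10.3 in siMBD2, 9.59 in siNC, 17.3 in siCHD4 and 45.1 in siCHD3, and yet no siCHD5 peak.

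Regions of a single list were weaker. Among siCHD5-alone regions, chromosome 16 from 48560435 to 48560686 and chromosome 8 from 12500055 to 12500263 had a fold of 10.8 each, and chromosome 19 from 45055541 to 45055842 had 9.57. Among siMBD2-alone regions, chromosome 1 from 249179177 to 249179410 had a fold of 10.2, chromosome 10 from 129447999 to 129448306 had 9.42 and chromosome 17 from 8013575 to 8013863 had 9.15. There were 224 regions (0.412% of the 54382) called in siCHD5 and siMBD2 and in no other list. They were led by chromosome 20 from 15217473 to 15217739, with a fold of 10.6 in siCHD5 and 7.99 in siMBD2, and by chromosome 1 from 54277280 to 54277612, with 12.0 in siCHD5 and 7.34 in siMBD2.

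Where both knockdowns had a peak, it was in nearly the same place. There were 22540 peaks that paired one to one, and their summits lay a median of 10 bp apart, with 98.6% within 100 bp. The siCHD5 peak of a pair was wider in 70.8% of pairs, with a median of 319 bp against 273 bp for the siMBD2 peak. The pair shared a median of 76.3% of the length that both peaks covered together.

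The order of fold enrichment within the pairs was much less alike than their position. Over the 22540 pairs, Spearman's rho between the folds of the 2 lists was 0.35, whereas between summit pileups it was 0.83 and between local backgrounds 0.77. These are descriptions across sites of 2 pooled libraries, whose sites share local background. Of the 2254 pairs in the top 10% by siCHD5 fold, 614 (27.2%) were also in the top 10% by siMBD2 fold, and 568 were in the lower part of the siMBD2 order, below its median. Conversely, 530 of the 2252 top pairs by siMBD2 fold lay below the siCHD5 median.

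**Figure D3:**
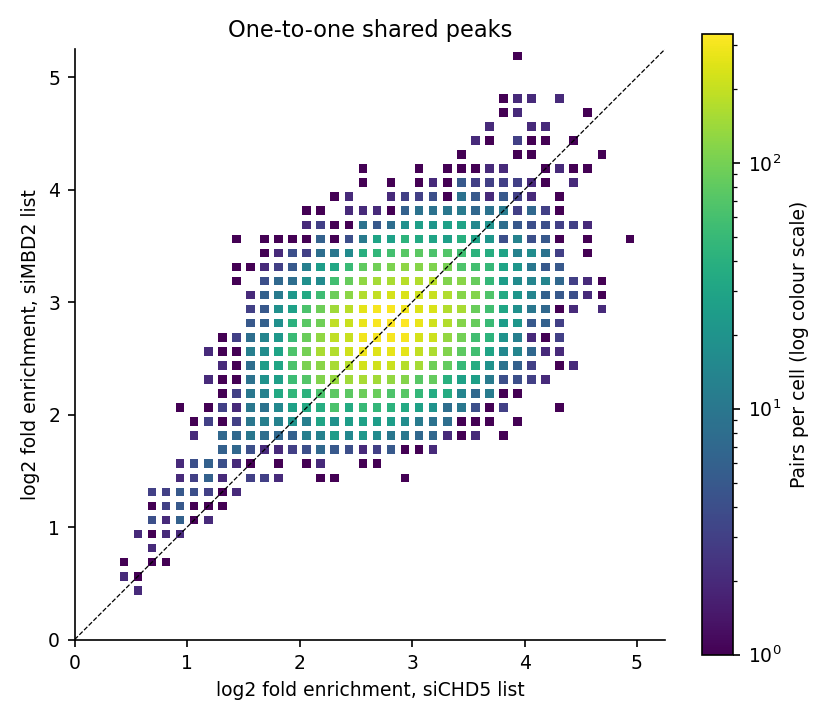
Log2 fold enrichment of the 22540 one-to-one shared peaks in the siCHD5 list (horizontal axis) and the siMBD2 list (vertical axis), with colour giving the number of pairs per cell on a log scale and a dashed line of equal values. The cloud is broad, with a Spearman's rho of 0.35, and its highest siMBD2 value is the leading X chromosome pair, with a fold of 14.997 in siCHD5 and 35.1 in siMBD2.

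The strongest pairs by siCHD5 fold were led by chromosome 7 from 17022270 to 17022678, with a fold of 31.2 in siCHD5 and 12.0 in siMBD2. It was followed by chromosome 1 from 224832181 to 224832735, with 26.8 in siCHD5 and 8.53 in siMBD2, and chromosome 1 from 92463137 to 92463582, with 25.7 and 7.95. These 3 pairs ranked 535, 4710 and 6487 by siMBD2 fold. The fourth, on chromosome 19 from 48447843 to 48448192, ranked high in both, with a fold of 25.3 in siCHD5 and 19.3 in siMBD2 and siMBD2 rank 30, and the fifth, on chromosome 19 from 33061170 to 33061507, had 25.05 and 9.21.

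The strongest pairs by siMBD2 fold were concentrated on the X chromosome. The leading pair, from 114960386 to 114960774 in siCHD5 coordinates, had a fold of 14.997 in siCHD5 and 35.1 in siMBD2, and ranked 397 by siCHD5 fold. The pairs from 114987243 to 114987625 (13.9 in siCHD5 and 28.4 in siMBD2), from 114981311 to 114981661 (16.1 and 28.3) and from 114969352 to 114969720 (17.4 and 27.9) lay within the same 45 kb. The remaining one of the 5 was on chromosome 19 from 50610278 to 50610727, with 19.3 in siCHD5 and 28.1 in siMBD2.

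This X segment held a row of evenly spaced peaks, and its window of 45 kb, starting at 114960001, was chosen after these pairs were seen. It held 29 siCHD5 peaks and 32 siMBD2 peaks. Peaks with a fold of at least 10 numbered 14 in siCHD5 and 15 in siMBD2, and successive ones were 2967 to 3006 bp apart in siCHD5 (median 2984) and 2960 to 3003 bp apart in siMBD2 (median 2983). Every one of these strong peaks was shared, with median folds of 15.6 in siCHD5 and 26.0 in siMBD2. Such peaks were not particular to this pair of lists. The siCHD3, siCHD4 and siMBD3 lists had 15, 14 and 15 of them, with highest folds of 46.2, 20.8 and 36.6. In siNC there were 3, with a highest fold of 11.2, but the window held 19 siNC peaks with a median fold of 8.36. At the X chromosome pairs named above, in that order, the siNC folds were 9.54, 10.1, 9.10 and 9.41. The cut of 10 thus leaves out siNC peaks just below it. Coverage differs between lists, so neither the size of these folds nor the number of peaks at this cut is compared. The window also held 15 siCHD5 peaks with folds of 2.29 to 7.73 and 17 siMBD2 peaks with folds of 2.92 to 6.28, of which 3 and 5 were specific. The median background there was 17.1 fragments per bp in siCHD5 and 3.57 in siMBD2. Whether the underlying sequence is a tandem repeat, whose copies could share reads, was not tested, and how reads with several matches were treated is not given in the sources used here.

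**Figure D4:**
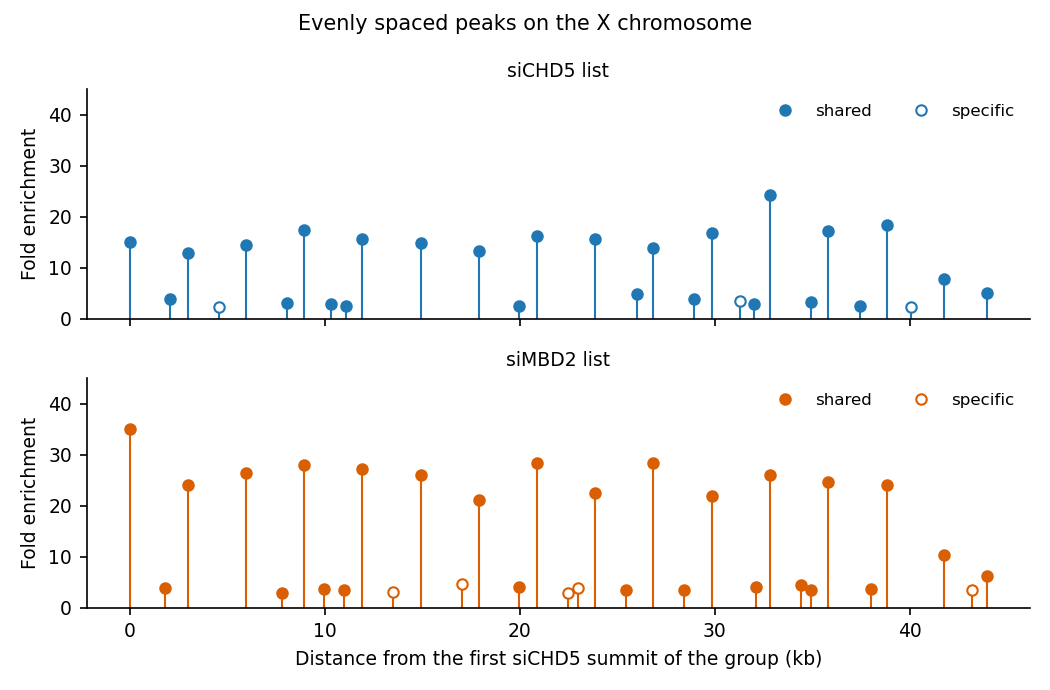
Fold enrichment at each summit (vertical axis) by distance in kb from the first siCHD5 summit of the group on the X chromosome (horizontal axis), for siCHD5 (upper) and siMBD2 (lower). Filled points are shared peaks and open points specific ones; peaks with a fold of at least 10, 14 in siCHD5 and 15 in siMBD2, recur about every 2984 bp and are all shared.

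The share of specific peaks varied over chromosomes. The share of siCHD5-specific peaks was highest on chromosome 18 (34.7%, interval 30.8 to 38.9), chromosome 4 (33.2%, 30.8 to 35.7) and chromosome 13 (33.0%, 29.5 to 36.5). It was lowest on chromosome 19 (23.1%, 20.6 to 25.8), on the X chromosome (24.1%, 21.99 to 26.4) and on chromosome 22 (24.9%, 21.6 to 28.5). The intervals of 4 chromosomes lay above the share of the whole siCHD5 list and those of 4 below it, of 23.

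The siMBD2-specific peaks gave another order. Their share was highest on chromosome 19 (16.1%, interval 13.8 to 18.5), chromosome 18 (16.0%, 12.7 to 19.9) and chromosome 16 (15.7%, 13.2 to 18.3), and lowest on chromosome 22 (11.4%), chromosome 15 (11.9%) and chromosome 12 (12.1%). Chromosome 19 had the lowest share of siCHD5-specific and the highest share of siMBD2-specific peaks, and was the only chromosome whose siMBD2 interval lay wholly above the share of the list. For each 100 siCHD5 peaks there were 91.6 siMBD2 peaks on chromosome 19 and 89.4 on the X chromosome, against 77.8 on chromosome 18 and 78.4 on chromosome 4.

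**Figure D5:**
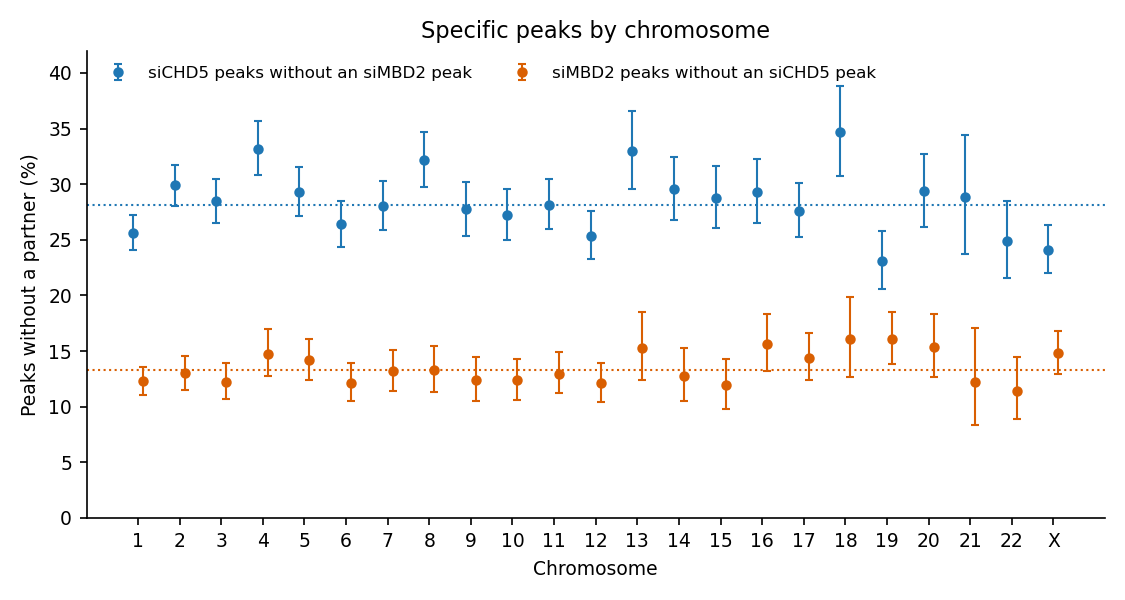
Share of peaks without a partner in the other list (vertical axis, percent) on each chromosome (horizontal axis), for siCHD5 and siMBD2 peaks, with exact 95% intervals; dotted lines are the shares of the whole lists. Chromosomes 18, 4 and 13 are high for siCHD5, and chromosome 19 is lowest for siCHD5 (23.1%) and highest for siMBD2 (16.1%).

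Weighting for peak strength gave different values with p and with fold. Weighting each list's specific share in 10 classes of peak p, scaled to the siMBD2 coverage for siCHD5, by the classes found on a chromosome gave 33.2% for siCHD5 peaks on chromosome 18, against the 34.7% observed, and 31.5% on chromosome 13, against 33.0%. On chromosome 19 the same weighting gave 27.3% for siCHD5 peaks against 23.1% observed, and 13.9% for siMBD2 peaks against 16.1% observed. On the X chromosome it gave 26.8% for siCHD5 peaks against 24.1% observed. The same weighting by deciles of fold gave 26.3% on chromosome 18, below the share of the whole siCHD5 list, 28.1% on chromosome 13, 27.7% on chromosome 19 and 26.7% on the X chromosome. On chromosome 4, second highest, the observed siCHD5 share was 33.2%, against 30.6% weighted by p and 28.2% weighted by fold. On chromosome 8, whose interval also lay above the list, it was 32.2%, against 29.8% weighted by p and 27.1% weighted by fold. Observed siCHD5 shares on chromosomes 18 and 13 were thus near the values weighted by p, while those on chromosomes 4 and 8 lay further above. Each lay above its value weighted by fold. The median background of siCHD5 peaks was lowest on chromosome 18 (3.91 fragments per bp) and was 6.05 on chromosome 19 and 5.69 on the X chromosome. On chromosomes 8 and 21 it was 4.98, with specific shares of 32.2% and 28.9%. Over the 23 chromosomes, Spearman's rho between this background and the siCHD5-specific share was −0.69. The part of base composition or copy number in these shares was not tested.

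The specific share of siCHD5 peaks was higher where control CTCF peaks were sparse, though the typical specific and shared peak had similar surroundings, with a median of 15 and 16 siNC peaks within 500 kb. The count includes an siNC peak at the peak itself, which 97.2% of shared and 73.7% of specific siCHD5 peaks had. In siMBD2 these shares were 97.2% and 48.2%. The count is thus raised more often for shared peaks by construction, and the part of this in the differences below was not tested. In the 20% of siCHD5 peaks with the fewest siNC peaks within 500 kb (at most 10), 34.1% were specific (interval 32.9 to 35.3), and in the 20% with the most (24 to 59), 23.9% were (22.8 to 24.95). Weighting by p as above gave 31.3% and 26.7%, whereas weighting by fold gave 27.4% and 29.7%, in the opposite order. In siMBD2 the sparsest 20% had 16.0% specific peaks and the densest 12.99%, and the weighted values were 16.1% and 12.0% by p and 14.2% and 13.6% by fold. Median backgrounds in the sparsest and densest parts were 4.62 and 7.11 fragments per bp in siCHD5, and 1.83 and 2.68 in siMBD2.

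Specific peaks followed one another slightly more often than they followed shared peaks. The peak after a specific one was itself specific in 30.2% of cases in siCHD5 and 16.0% in siMBD2, against 27.3% and 12.9% after a shared peak. The longest run in siCHD5 was 18 specific peaks in a row on chromosome 8 from 86742635 to 86811796, with a median fold of 2.46, of which 1 overlapped an siNC peak. The siMBD2 list had 7 peaks in that stretch and siNC had 9. The longest run in siMBD2 was 10 peaks on chromosome 4 from 9229928 to 9351416, with a median fold of 4.28, where siCHD5 had 7 peaks and siNC had 3. In the chromosome 4 run, too, 1 of the peaks overlapped an siNC peak, and both stretches held peaks of all 6 lists.

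Both stretches lay in bins of high specific share when siCHD5 peaks were counted in bins of 1 Mb. These bins count peaks of the stretches again, and the chromosome 8 run supplied 18 of the 31 specific siCHD5 peaks in its bin. Of 297 bins with at least 20 siCHD5 peaks, the median share of specific peaks was 25%, and 6 bins exceeded 50%. The highest were chromosome 7 from 61000001 to 62000000 (16 of 20 peaks), chromosome 4 from 9000001 to 10000000 (16 of 22) and chromosome 8 from 86000001 to 87000000 (31 of 44). In these bins siMBD2 had 9, 19 and 29 peaks, of which 5, 13 and 16 were specific. The lowest bin was chromosome 2 from 92000001 to 93000000, where none of 31 siCHD5 peaks was specific (which allows up to 9.68% by 3 counts and 11.2% by the exact interval) and the median background was 213 fragments per bp. It was followed by chromosome 16 from 66000001 to 67000000 (1 of 23) and chromosome 12 from 118000001 to 119000000 (1 of 21).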

How the data were processed

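Peaks came from CTCF ChIP-seq of HEK293T cells. Per the submitters' processing notes, Bowtie2 2.3.4, SAMtools 1.9, MACS2 2.1.2, bedtools 2.25.0, deepTools 3.5.0 and FastQC 0.11.7 were used with hg19; their settings are not given in the sources used here. Per the file names, the authors pooled 3 replicates in each list. The deposited columns used were fold enrichment (a ratio), −log10 p, −log10 q and summit offset; the deposited score was not used.

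Overlaps were counted in Python 3.11.15 (numpy 2.4.6, scipy 1.17.1, pandas 2.3.3) and equalled those of bedtools 2.31.1. Of lines with the same chromosome, start and end, the one of highest fold was kept. Depth per sample was not used. Instead, summit pileup and local background were solved for each peak from the authors' fold and −log10 p, with fold read as (pileup + 1)/(background + 1) and a Poisson tail for p. For siCHD5, siMBD2 and siNC a whole-number solution within 0.01% of the deposited p existed for 100% of peaks. Overlap and pileup steps were tested on simulated data. Shares have exact 95% intervals and no test.

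Named regions were the 5 strongest peaks per list with no partner within 1 kb, the 5 strongest pairs by either list, the 3 strongest regions of each pattern over the 6 lists, and the 3 highest and lowest chromosomes and 1 Mb bins. Members, rules and alternatives were chosen with earlier results of these data known. Promoter and CTCF motif shares were planned but not run, because an hg19 genome and annotation were not used here.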

Additional observations from a re-analysis of the deposited data

Results flagged for a closer look

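Peaks outside chromosomes 1 to 22 and X entered no comparison above. The siMBD2 list held 2 peaks on the mitochondrial genome, where the siNC list and the siCHD5 list held 0, with folds of 1.27 and 1.46. The siCHD3, siCHD4 and siMBD3 lists held more, with 8, 9 and 7 peaks there and folds of up to 2.66. Peaks outside chromosomes 1 to 22 and X made up 1.83% of the siCHD5 list and 2.26% of the siMBD2 list, against 2.93% in siCHD3, 2.53% in siCHD4, 2.31% in siMBD3 and 1.59% in siNC. They numbered 586 in siCHD5, 603 in siMBD2 and 585 in siNC. Most lay on unplaced or alternative contigs, 561 in siCHD5 and 570 in siMBD2.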

How the results depend on the processing

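In all 10 alternatives the specific share was higher in siCHD5 than in siMBD2, and the siNC share was higher for siCHD5-specific peaks. With lists of equal length the specific shares were nearly equal by construction. In the other alternatives the counted siCHD5 list was the longer. Where the same lists were counted and searched, overlap was nearly one to one, so list length set the order of the specific shares. Values below give, in order, the specific share of siCHD5 peaks, that of siMBD2 peaks, and the siNC share of siCHD5-specific and of siMBD2-specific peaks. A −log10 q of at least 5 in every list gave 30.8%, 6.76%, 78.5% and 68.6%, and at least 10 gave 45.6%, 4.07%, 83.8% and 75.1%. A −log10 q of at least 10 in the counted list only gave 18.9%, 1.80%, 88.6% and 80.3%. Reciprocal overlap of 50% gave 29.9%, 15.5%, 71.9% and 45.2%, and summits within 100 bp gave 29.2%, 14.7%, 71.6% and 42.6%. Lists of 26087 peaks each gave 19.9%, 19.9%, 87.3% and 60.4%. Counting siCHD5 peaks that pass at the siMBD2 coverage gave 24.3%, 15.7%, 81.2% and 53.2%. Any peak within 1 kb gave 27.3% and 12.5% for the specific shares. The other values, including those with all contigs or without peaks over 1 kb, stayed within the intervals of the values above. The cause of these shifts was not tested beyond what each setting removes. No paired analysis was possible because the lists pool the replicates, and for the same reason no replicate could be left out. Coverage, which mixes depth and fragment length, was lower in siMBD2, and its part in the number of weak sites called there was not tested beyond the scaled setting.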
